A study of Homo sapiens with 14 samples.

Results

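Broad H3K27me3 domains were the widest rows of the H3K27me3 peak lists of TC-32, an established Ewing sarcoma cell line that carries the EWSR1::FLI1 fusion. H3K27me3 is histone H3 trimethylated at lysine 27. A domain was a row of the set B replicate 1 broad list on chromosomes 1 to 22 or X that was at least 8 kb wide and overlapped a row of replicate 2 by at least 1 base. There were 1037 such domains among 21461 rows, or 4.83%. All 1037 rows of that width overlapped replicate 2, so the members were in effect chosen by the width of the replicate 1 row alone.

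The study used CUT&RUN, in which an antibody directs a nuclease to cut out the DNA next to its target, to place the fusion's binding relative to active and repressed chromatin. All libraries came from TC-32 cells labelled wild type, with no treatment, so all share 1 line and its fusion, and the antibody to FLI1 does not tell the fusion from FLI1 itself. FLI1 was mapped in sets A and B, H3K27ac in set A, and H3K9me3 and H3K27me3 in set B, each with 2 replicates, and each set had 2 IgG controls. The labels do not say what A and B stand for, or whether replicates were separate cultures, so any p-value measures only the spread between these libraries. The deposited peak lists give no read totals, so depth is unknown, and a region missing from a list was not detected rather than shown to lack the mark. All positions are on hg38.

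H3K27me3 is written by Polycomb repressive complex 2, whose catalytic subunit is EZH2 or EZH1, and is bound by the CBX proteins of Polycomb repressive complex 1. The mark spreads from CpG-rich gene starts and is known for covering the genes of transcription factors that set up other lineages, the HOX clusters among them. H3K27ac marks active promoters and enhancers and sits on the same lysine, so 1 histone tail cannot carry both. H3K9me3 marks a separate kind of silent chromatin, rich in repeats.

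The promoters of 3 transcription factor genes that the domains covered whole are shown first, since they show the kind of sequence that lay under the mark. They are the 250 bases before the start in RefSeq's GRCh38.p14 table, written 5′ to 3′ on the gene's strand, with each CG dinucleotide in capitals. UNCX, a homeobox factor of the somites, has its promoter at chr7:1232622-1232871 on the plus strand, with 15 CG dinucleotides. HOXA9, a HOX factor of the body axis and of blood, has its promoter at chr7:27165538-27165787 on the minus strand, with 20. PAX2, a paired-box factor of kidney and midbrain, has its promoter at chr10:100735146-100735395 on the plus strand, with 10.
UNCX: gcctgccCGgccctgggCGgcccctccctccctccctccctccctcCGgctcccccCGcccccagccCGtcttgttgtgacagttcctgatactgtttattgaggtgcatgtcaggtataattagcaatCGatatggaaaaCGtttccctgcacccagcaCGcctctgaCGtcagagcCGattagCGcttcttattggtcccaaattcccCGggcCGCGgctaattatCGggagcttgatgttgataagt
HOXA9: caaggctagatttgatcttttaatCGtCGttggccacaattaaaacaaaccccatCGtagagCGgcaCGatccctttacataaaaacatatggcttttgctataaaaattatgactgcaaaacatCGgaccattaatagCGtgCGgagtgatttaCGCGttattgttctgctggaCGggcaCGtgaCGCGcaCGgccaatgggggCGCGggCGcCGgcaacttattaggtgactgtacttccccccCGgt
PAX2: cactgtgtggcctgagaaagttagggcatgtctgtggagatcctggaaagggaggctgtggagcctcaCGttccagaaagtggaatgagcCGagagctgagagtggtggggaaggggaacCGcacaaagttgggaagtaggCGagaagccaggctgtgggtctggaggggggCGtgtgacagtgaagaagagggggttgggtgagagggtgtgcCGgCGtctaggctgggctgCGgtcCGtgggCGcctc

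The domains were rich in G and C, at 55.3% of their bases, against 52.6% in the 10143 shorter rows found in both replicates, 49.2% in the 20 kb on either side of the domains and 40.9% in the genome. Their CG dinucleotides stood at 0.362 of the number that base composition predicts, close to the shorter rows at 0.359 and above the flanks at 0.277 and the genome at 0.240. A CpG-rich window, meaning 500 bases with at least 55% G and C and a CpG ratio of at least 0.65, was present in 624 domains, or 60.2%. The same held for 21.4% of shorter rows, which are narrower, and for 12.1% of 26068 genome tiles of the domains' median width. Of the domains that held a protein-coding start 90.4% had such a window, and of those without one 44.3%. RefSeq promoters of 300 bases were matched for 276 of the 394 protein-coding genes with a start in a domain. These had a median of 25 CG dinucleotides, with a range of 1 to 60, against 22 over all 15315 matched genes and 23 for genes at shorter rows. Single promoters of domain genes were thus little richer in CG than promoters in general.

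The domains together covered 14.4 Mb, which was 29.4% of the bases in the replicate 1 list and 0.495% of the genome. Their median width was 11.1 kb, with quartiles of 9.28 and 15.1 kb and a widest of 80.8 kb. At least 20 kb was reached by 127 domains, at least 40 kb by 21 and at least 60 kb by 7. The shorter rows had a median width of 2.103 kb. Width chose the domains, so these values describe the choice. Nothing marked the threshold itself, since the narrowest domains were 8.004 kb in the gene ENSG00000283128, 8.009 kb in EVPL and 8.015 kb near C1orf174. The widest rows that missed it were 7.995 kb at UBL4B, 7.99 kb at COL23A1 and 7.986 kb at MICAL2.

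Replicate 2 covered 81.5% of the domains' bases and 59.9% of the bases of the shorter rows. Per domain the share ran from 9.53% to 100% with a median of 82.3%. It was at least 50% in 963 domains and under 25% in 7. Replicate 2 drew the same stretches in more pieces: 334 domains met 1 of its rows, 545 met 2 or 3, and 158 met at least 4, up to 11. The widest replicate 2 row in a domain had a median width of 7.95 kb. Replicate 2 had 564 rows of at least 8 kb, and 546 of them overlapped a domain. The authors' fold over IgG for the domain's row in replicate 1 had a median of 5.96, with a range of 4.42 to 11.6, against 4.93 in shorter rows. The widest replicate 2 row of each domain had a median fold of 5.61. Where a domain began and ended thus depended on the replicate.

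**Figure D1:**
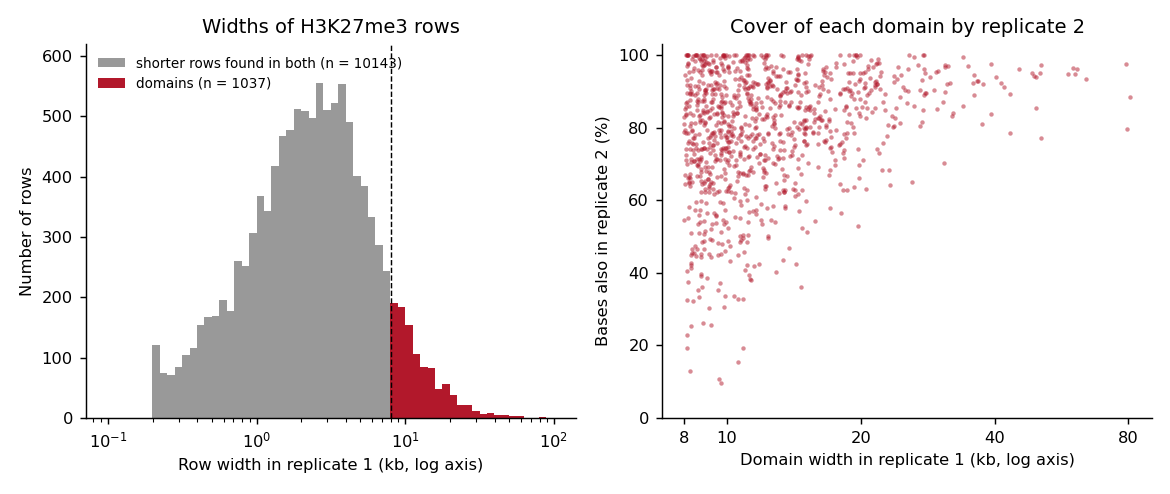
Left, the widths of the 1037 domains and the 10143 shorter rows found in both replicates, on a log axis in kb, with the 8 kb minimum dashed. Right, the percentage of each domain's bases also in replicate 2 against its width. The widths fall off smoothly through 8 kb, and the domains with little cover in replicate 2 are among the narrower ones.

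Of the 12 widest domains, the first, 80.8 kb at chr1:2425150-2505927, held the start of PLCH2, a phospholipase C, with 88.5% in replicate 2. The next, 79.6 kb at chr22:37309920-37389480, held no protein-coding start and lay partly in the bodies of CYTH4 and ELFN2, with 79.6% in replicate 2 spread over 11 rows. The third, 79.0 kb at chr20:62414351-62493368, held the starts of RBBP8NL and of GATA5, a factor of heart and endoderm. It was 97.4% covered by 2 rows of replicate 2, the wider of them 70.7 kb.

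A second domain of 60.1 kb lay 35.6 kb from the GATA5 start, at chr20:62511600-62571706. It held no protein-coding start but held the miRNA genes MIR1-1 and MIR133A2, whose products are abundant in heart and skeletal muscle. A 64.4 kb domain on chromosome 14 held the starts of TMEM179 and C14orf180. A 61.3 kb domain at chr11:1980981-2042319 held the start of H19, an imprinted lncRNA, with that of MIR675, which lies within H19, and it was 96.1% covered by replicate 2. Domains of 60.7 and 58.5 kb lay wholly in the body of PRDM16, a zinc-finger factor of brown fat, and a 27.6 kb domain held its start. Domains of 50.8 and 50.5 kb lay in the body of RBFOX3, the neuronal splicing factor known as NeuN. The starts of SOHLH1 and KCNT1, a potassium channel gene, lay in a domain of 51.0 kb, and the start of NTNG2, a netrin relative on axons, in one of 49.6 kb. None of these 12 widest domains held a FLI1 region in any library, and neither did 954 of all 1037 domains.

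Protein-coding starts lay in 356 of the 1037 domains, or 34.3%, against 11.5% of the shorter rows. These starts numbered 394 of 19970, a background of 1.97% of genes. Starts here are the gene starts of GENCODE release 44. A single start was held by 323 domains, 2 by 29, 3 by 3 and 4 by 1. Per Mb the domains held 27.3 protein-coding starts, which was fewer than the 46.3 in shorter rows and more than the 6.86 in the genome. The order of domains and shorter rows therefore turned with the measure: a domain more often held a start, but its sequence held fewer per Mb. Of the 394 starts 251, or 63.7%, lay in the central 50% of the domain. The domain ran further downstream of the start than upstream for 258 of them, with medians of 7.32 kb downstream and 5.24 kb upstream.

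The other 681 domains held no protein-coding start. Of these 331 lay wholly in protein-coding gene bodies, 51 partly, and 299 touched no such gene. Their median distance to the nearest start was 50.4 kb, and 95 were within 10 kb of one. lncRNA starts numbered 310 of 18756 in 248 domains, or 1.65% of lncRNA genes. More of the domains were thus placed away from protein-coding starts than on them.

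Transcription factor genes of development were held by the domains above the background of 1.97%. In 9 lists of such factors, 89 of 339 genes, or 26.3%, had the start in a domain, and they made up 22.6% of the domain starts, in 85 domains. Among homeobox genes outside the HOX clusters it was 40 of 118, or 33.9%. The widest of these domains held VENTX with UTF1 (49.1 kb), UNCX (45.4 kb), IRX4 (41.3 kb), EN2, a factor of the midbrain and cerebellum (36.6 kb), LHX2 (31.8 kb) and HMX1 (30.9 kb). In replicate 2 these domains were covered from 89.9% at HMX1 to 96.2% at UNCX.

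Genes are called covered here where the start lay in a domain. GATA genes were covered in 3 of 6 cases: GATA5, GATA3, a factor of T cells and breast, in 34.0 kb, and GATA6 in 13.9 kb. SOX genes were covered in 5 of 19, among them SOX14, whose domain of 14.0 kb had a fold of 10.3 in replicate 1 and 7.71 in replicate 2, and SOX17, a factor of endoderm and vessels. Paired-box genes were covered in 2 of 9, PAX2 with 42.0 kb and PAX7 with 11.4 kb. Forkhead genes were covered in 7 of 44, T-box genes in 3 of 17 and developmental zinc-finger genes in 8 of 35. FOXL2, a factor of the ovary, lay in 11.3 kb with folds of 9.51 and 7.23. TBXT, the notochord factor brachyury, lay in 11.7 kb, and WT1, a factor of the kidney, in 18.6 kb. Lineage bHLH genes were covered in 13 of 52, among them MYOD1, the master factor of muscle, in 9.28 kb, and OLIG2, a factor of oligodendrocytes, in 18.7 kb. Every one of these lists stood above the background, and the lists were chosen with earlier results of these data known. Shorter rows held factor starts too, against 6.04% of all genes: 17 of 118 other homeobox, 12 of 52 bHLH and 6 of 44 forkhead genes. They also held 6 of 35 zinc-finger, 4 of 19 SOX, 3 of 9 paired-box, 3 of 17 T-box and 1 of 6 GATA genes. Only the HOX genes, with 1 of 39, were below that share.

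HOX genes were held unevenly. Of 39 HOX genes 8 had the start in a domain and 28 lay outside every H3K27me3 row of either replicate. The HOXA cluster took 7 of the 8 in 3 neighbouring domains. The starts of HOXA3, HOXA6 and HOXA7 lay in 11.999 kb at chr7:27150248-27162246. HOXA6 and HOXA3, on the minus strand, started at 27150603 and 27152583, near that domain's lower edge. The start used is the outermost one annotated for a gene, and that of HOXA3 lay between those of HOXA6 and HOXA7 (27157936). The count therefore does not speak for other starts of HOXA3. The starts of HOXA9, HOXA10 and HOXA11 (with ENSG00000257184) lay in 30.7 kb at chr7:27163397-27194081. That of HOXA13 lay in 8.66 kb at chr7:27197556-27206211. Replicate 2 covered 82.3%, 87.0% and 99.1% of these 3 domains. Only HOXD1 stood for the other 3 clusters, in 9.14 kb at chr2:176186177-176195318, where replicate 2 covered 64.5%. At the starts of HOX genes as a whole, 5 of 39 had H3K27ac in both replicates within 1 kb, near the 11.3% of all protein-coding starts.

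Signalling and channel genes, like the factor genes above, were held by shorter rows as well as by domains. So were protein-coding genes in general: 1207 of all 19970 starts, or 6.04%, lay in shorter rows and 1.97% in domains. WNT ligands and antagonists had 7 of 33 starts in domains and 14 in shorter rows, and FGF ligands 2 and 6 of 22. BMP and GDF genes with their antagonists had 4 and 5 of 30, and hedgehog genes 1 and 3 of 11. Among these domains were those over WNT1 (8.10 kb), WNT7B (8.99 kb), WNT3A (12.3 kb), BMP4 (11.4 kb), FGF3 (16.5 kb) and IHH (12.3 kb). The widest of the WNT list was that of RSPO1, an enhancer of WNT signalling, at 29.6 kb, and the widest of the BMP and GDF list that of INHBB, an activin subunit, at 32.1 kb. IHH, the hedgehog ligand of bone growth, had folds of 9.51 and 8.47. Potassium channel genes had 9 of 77 starts in domains and 25 in shorter rows, and KCNT1 lay in the widest of these domains.

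None of 75 cytosolic ribosomal protein genes, 34 Polycomb genes and 21 tumour suppressor and cell-cycle inhibitor genes had a start in a domain or a shorter row. With 1.97% of all genes in domains, a list of this size would hold few or none, so the absence from domains is near the background. Outside every H3K27me3 row of either replicate lay 100% of each of these lists, against 91.0% of all protein-coding genes, and this difference was not tested. Ribosomal protein genes had H3K27ac in both replicates within 1 kb in 14 of 75 cases, against 11.3% of all protein-coding starts. Of 20 genes listed as activated by EWSR1::FLI1, PAX7 alone lay in a domain. Of 12 listed as repressed none did, which a share of 1.97% would also give, and 3 lay in shorter rows, where 6.04% of all genes did. Among lineage markers, domains held 3 of 6 neural factors (NEUROG2 and OLIG2 among them), 2 of 6 blood factors (TAL1 and GATA3), 1 of 6 muscle factors (MYOD1) and 1 of 6 endoderm and epithelial factors (CDX2). Of 11 Ewing sarcoma markers PAX7 alone was held, a factor of muscle stem cells. At these 11 starts FLI1 lay within 1 kb in all 4 libraries in 9 cases, against 33.8% of all starts. H3K27ac in both replicates lay there in 1 case, STEAP1, near the 11.3% of all starts. These lists are short, and their shares are descriptions.

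**Figure D2:**
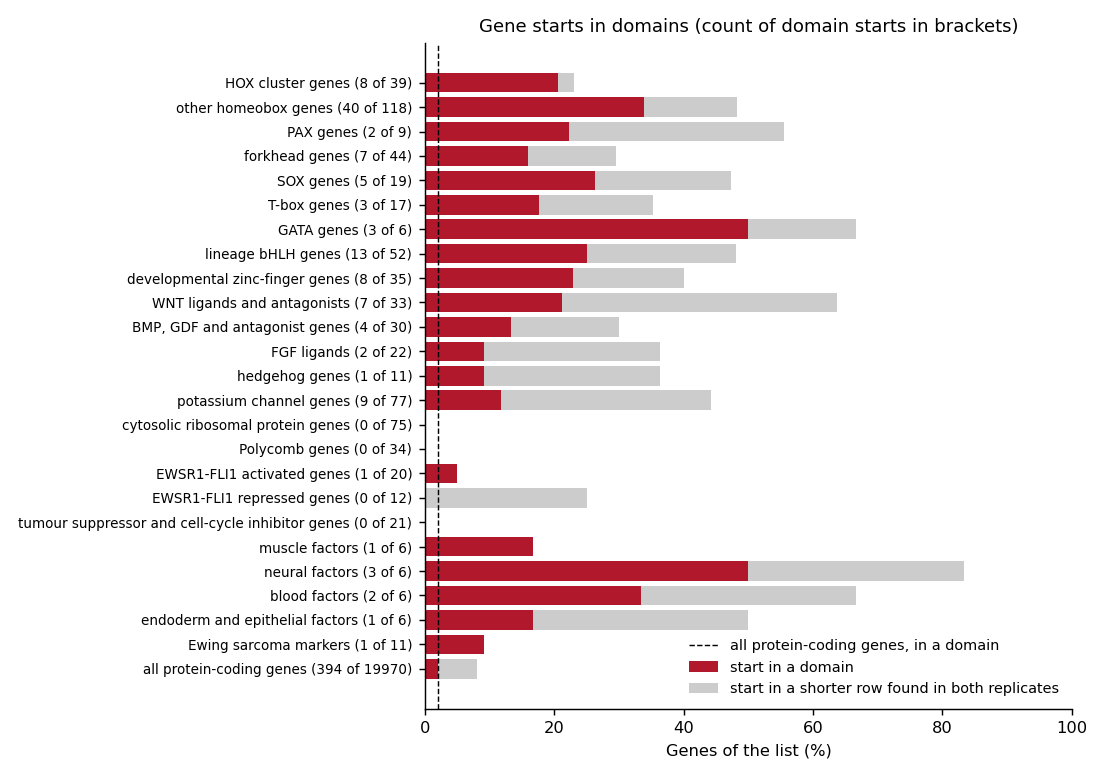
The percentage of each gene list with the start in a domain (red) or in a shorter row found in both replicates (grey), with the number in domains and the list size in brackets. The dashed line is the share of all protein-coding genes in a domain, 1.97%. The transcription factor lists run from 15.9% (forkhead) to 50% (GATA), and the ribosomal, Polycomb and tumour suppressor lists are at 0.

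ETS1, FLI1, EWSR1, NR0B1, CCND1 and NKX2-2 were looked up one by one. The start of FLI1, an ETS factor of blood and vessels, lay in a domain of 11.1 kb at chr11:128685143-128696216, with a fold of 5.76. A single row of 10.8 kb with a fold of 5.44 lay there in replicate 2 and covered 97.1% of it. The start of its neighbour ETS1 lay in no domain: its row in replicate 1 was 2.43 kb wide and replicate 2 had none. A domain of 16.1 kb at chr11:128607156-128623220 lay 19.6 kb from the ETS1 start, in no gene body, with 75.5% in replicate 2. No H3K27me3 row of either replicate lay over the starts of EWSR1, NR0B1, CCND1 or NKX2-2.

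miRNA genes with their hairpin's start in a domain numbered 44 of 1877, or 2.34%, in 40 domains. That share was near the 1.97% of protein-coding and 1.65% of lncRNA genes. The start of a hairpin is not the start of its transcript, which these lists do not give. RefSeq's GRCh38.p14 table held 38 of the 44. Mature sequences of 10 are shown because several of these miRNAs mark a tissue. These 10 were picked after the list was seen and do not stand for the 44. Each is written 5′ to 3′ with the seed, bases 2 to 8, in capitals.
miR-200b-3p: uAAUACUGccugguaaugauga
miR-429: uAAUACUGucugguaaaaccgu
miR-200a-3p: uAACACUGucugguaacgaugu
miR-375-3p: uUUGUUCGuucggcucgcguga
miR-196b-5p: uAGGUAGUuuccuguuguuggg
miR-203a-3p: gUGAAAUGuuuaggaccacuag
miR-1-3p: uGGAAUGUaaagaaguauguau
miR-133a-3p: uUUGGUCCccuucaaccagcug
miR-9-5p: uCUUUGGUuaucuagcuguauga
miR-129-5p: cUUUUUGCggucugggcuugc

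MIR200B and MIR429, whose products share the seed AAUACUG, and MIR200A, whose product has AACACUG, are epithelial miRNAs and lay together in the 20.7 kb domain at chr1:1164963-1185620 that also held the start of TTLL10. Replicate 2 covered 88.8% of it, and no FLI1 region lay in it, as in 954 of all 1037 domains. MIR375, known from pancreatic islets, lay with FEV, a factor of serotonin neurons, in 26.3 kb on chromosome 2, 99.4% covered by replicate 2. MIR196B lay in the HOXA9 domain. MIR203A, a miRNA of skin, lay in 9.14 kb in the body of ASPG, 95.4% covered. MIR9-1, a neural miRNA, lay in 25.7 kb with no protein-coding start, 100% covered, and MIR129-2 in 11.9 kb, 86.9% covered. Some domains without a protein-coding start therefore lay over a miRNA gene.

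The domains lay unevenly along the genome. Per 10 Mb there were 3.56 over all chromosomes, with the highest densities on chromosomes 20 (8.91), 22 (8.43), 17 (8.20) and 11 (7.21). The lowest were on X (0.839), 6 (1.00) and 21 (1.25). By number chromosome 1 led with 139, followed by 11 with 97 and 7 with 76. Shorter rows were also dense on chromosomes 20, 22, 17 and 11, at 67.7, 75.1, 58.5 and 58.3 per 10 Mb against 34.8 in all. They were sparsest on X (11.9). On chromosome 19 the classes parted, with 65.2 shorter rows and 3.25 domains per 10 Mb. Within 5 Mb of a chromosome end lay 438 domains, or 42.2%, against 25.03% of shorter rows, 12.9% of protein-coding starts and 7.77% of the genome. Among domains of at least 20 kb it was 76 of 127, or 59.8%, and among those of at least 30 kb it was 31 of 43, or 72.1%. The domains near the ends had a median of 57.0% G and C and the others 53.1%, and the part of base composition in the pattern was not tested.

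**Figure D3:**
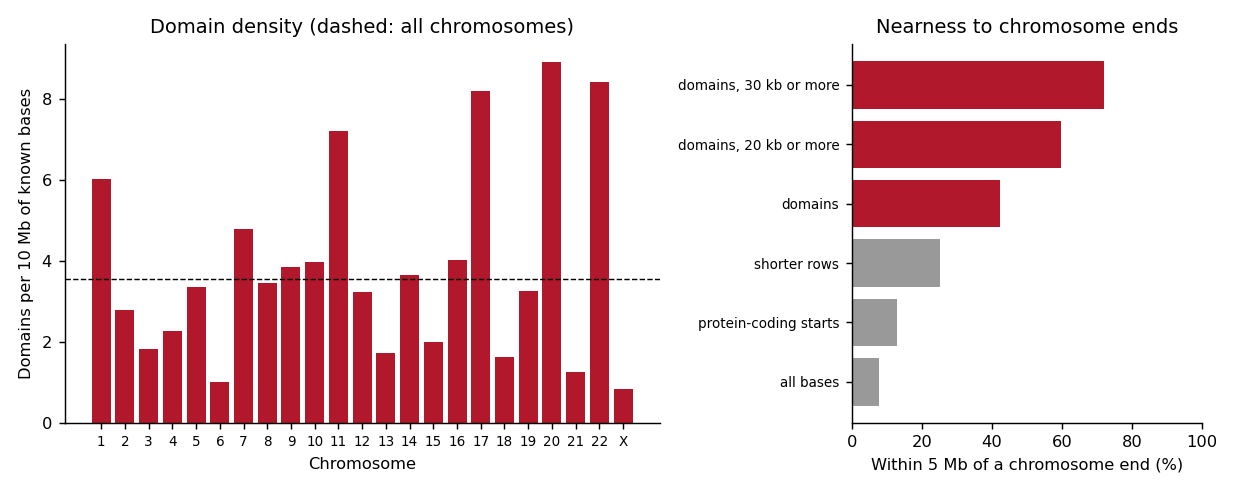
Left, domains per 10 Mb of known bases on each chromosome, with the value over all chromosomes, 3.56, dashed. Right, the percentage of bases, gene starts, shorter rows and domains within 5 Mb of a chromosome end. The share is 7.77% for all bases and 72.1% for domains of at least 30 kb.

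Domains also came in runs. With gaps of up to 20 kb, 495 domains, or 47.7%, formed 183 chains of 2 or more, and 13 chains had at least 5. The longest, with 10 domains over 256 kb on chromosome 16, passed SOX8, a neural crest factor, SSTR5, a somatostatin receptor, and CACNA1H, a calcium channel. A chain of 9 over 219 kb on chromosome 20 held BHLHE23 and SLC17A9, and another of 9 over 175 kb on chromosome 7 held EN2 and CNPY1. A chain of 7 over 231 kb on chromosome 17 lay at RBFOX3. Chains of 4 held PAX2 (112 kb) and, on chromosome 9, SOHLH1 and KCNT1 (134 kb). The median gap was 5.10 kb, and 33.6% of the gap bases lay in some H3K27me3 row of either replicate. Chain members are neighbours and are not independent regions.

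FLI1 regions were sparse inside the domains. Set A replicates 1 and 2 had 34 and 30 FLI1 summits inside, and set B had 58 and 27. Per Mb these were 2.36, 2.08, 4.02 and 1.87, against 9.07, 9.97, 10.8 and 8.43 in the 20 kb flanks. Every library was lower inside, and the values inside did not overlap those of the flanks. The mean log2 ratio of density inside to flanks was -1.95 ± 0.37 (SD, n = 4). Set A gave -1.94 and -2.26, and set B gave -1.43 and -2.17. An exact sign-flip permutation test over the 4 libraries gave a two-sided p = 0.125, which is the lowest this design can reach. With Benjamini-Hochberg adjustment for 4 tests the exact permutation p became 0.167. The 4 values share 1 set of domains, so the SD is the spread of FLI1 libraries only.

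Shorter H3K27me3 rows held more FLI1 summits per Mb than the domains did, at 3.53, 2.84, 7.06 and 4.33. The log2 ratio of domains to shorter rows was -0.76 ± 0.33 (SD, n = 4), below 0 in 4 of 4 libraries from -0.45 to -1.21, with the same exact permutation p of 0.125 and adjusted 0.167. The whole genome had 12.1, 13.9, 13.1 and 10.1. Set A and set B differed by -0.30 in the log2 ratio to the flanks, which an exact permutation test put at p = 0.667, with 0.333 the smallest possible. That difference rested on the high value of set B replicate 1: without it the difference was 0.0689. H3K27me3 and FLI1 of set B share IgG controls by set and number, while FLI1 of set A does not. The part of the shared controls in these ratios was not tested.

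With distance the FLI1 density rose, after a dip near the edges. In the first 1 kb outside the edges it was 7.44 to 9.42 per Mb, at 2 to 5 kb 5.44 to 7.97, at 20 to 50 kb 11.9 to 14.5, and at 100 to 200 kb 15.8 to 19.8. Protein-coding starts went the other way at the edge, with 27.3 per Mb inside and 8.43 in the first 1 kb outside, and reached 11.9 at 100 to 200 kb. The FLI1 summits inside were not gathered at the edges: between 5.88% and 16.7% of them lay within 1 kb of an edge, a zone with 14.4% of domain bases. They were weak for their lists, with median percentiles of the authors' fold of 39.8 and 35.2 for set A, then 33.4 and 26.0 for set B.

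**Figure D4:**
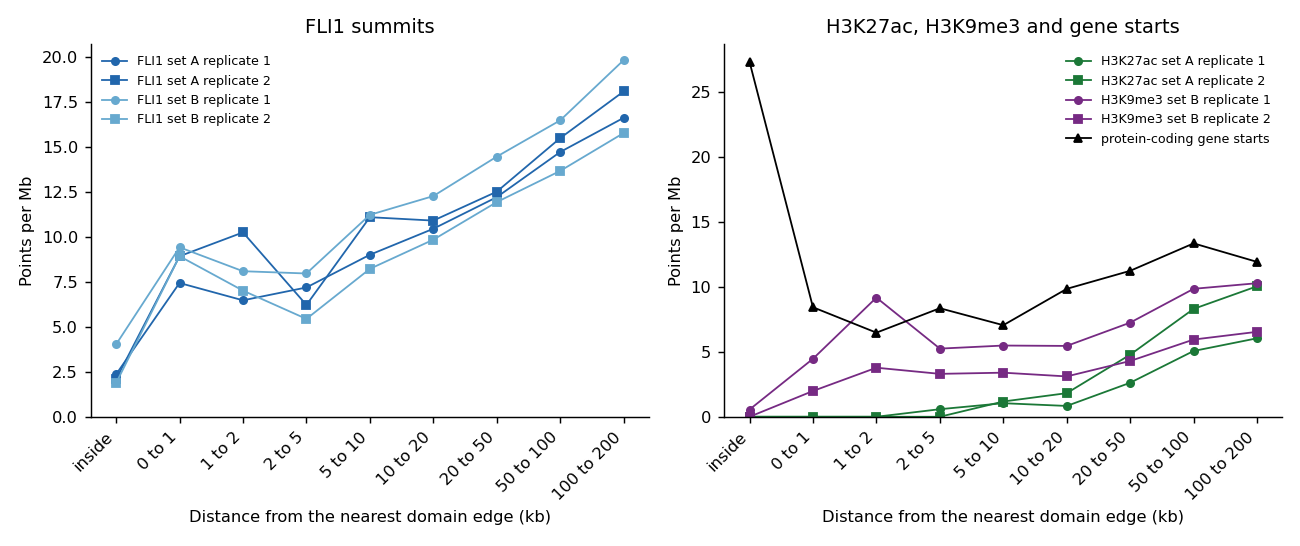
Points per Mb inside the domains and by distance from the nearest domain edge in kb, with FLI1 summits of each library on the left and H3K27ac and H3K9me3 region centres with protein-coding starts on the right. FLI1 is lowest inside in all 4 libraries, H3K27ac is 0 inside and up to 2 kb outside, and gene starts are highest inside.

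At protein-coding starts the difference was wider. FLI1 lay within 1 kb of 7, 8, 25 and 13 of the 394 domain starts in the 4 libraries, in the order set A then set B, which was 1.78%, 2.03%, 6.35% and 3.30%. Starts outside every H3K27me3 row had FLI1 in 44.5%, 44.2%, 53.9% and 50.4% of cases, and the 2 sets of values did not overlap. The difference was -44.9 percentage points ± 2.85 (SD, n = 4), lower in 4 of 4 libraries, with an exact permutation p of 0.125 and adjusted 0.167. Starts in shorter rows had 2.73%, 1.99%, 6.05% and 4.97%, close to those in domains. In all 4 libraries FLI1 lay within 1 kb of 33.8% of all starts and of 3 domain starts: EFR3B, HOXD1 and IGSF9B. Another 14 domain starts had FLI1 in 2 libraries and 13 in 1.

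A FLI1 region shared at least 1 base with 83 of the 1037 domains in some library, or 8%, against 2.68% of the shorter rows. A domain is wider and offers more bases, so this share runs opposite to the density above. By number of libraries, 39 domains had FLI1 in 1, 31 in 2, 9 in 3 and 4 in all 4. The last group was 0.386% of domains, with 0.266% of shorter rows as the background. FLI1 lay within 20 kb of 342 domains in some library, or 33.0%, and of 122 in all 4, or 11.8%. Library by library this share was 20.5%, 21.2%, 24.5% and 19.2% for domains. For shorter rows, which are narrower, it was 17.0%, 17.2%, 19.1% and 15.7%, so the domains were near H3K27me3 rows in general. The domains of IGSF9B, HOXD1 and BARHL2 were 3 of the 4 with FLI1 in all libraries, and their summits were compared next.

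Windows of 151 bases at the summits of HOXD1 and BARHL2 are given because they show where the ETS core stood. Each is centred on the median summit of its libraries and written on the plus strand of hg38, with GGAA, the core of the ETS motif, or its reverse complement TTCC in capitals. Such a core was present in 74.7% of 151-base windows taken every 10 kb of the genome and in 81.0% to 85.5% of windows at all summits of the 4 lists, so its presence in a window says little. The windows were chr2:176187625-176187775 for HOXD1, chr1:90708826-90708976 for BARHL2 in set A and chr1:90718149-90718299 for BARHL2 in set B.
HOXD1: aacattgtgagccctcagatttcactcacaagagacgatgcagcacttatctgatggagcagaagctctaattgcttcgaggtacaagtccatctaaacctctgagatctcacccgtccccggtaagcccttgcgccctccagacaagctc
BARHL2 set A: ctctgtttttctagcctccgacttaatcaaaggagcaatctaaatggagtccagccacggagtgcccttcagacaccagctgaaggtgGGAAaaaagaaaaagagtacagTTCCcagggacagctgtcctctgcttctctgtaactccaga
BARHL2 set B: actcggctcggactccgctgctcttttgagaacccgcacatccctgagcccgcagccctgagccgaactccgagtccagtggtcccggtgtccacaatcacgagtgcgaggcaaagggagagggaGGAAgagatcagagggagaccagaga

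IGSF9B, which encodes an adhesion protein of inhibitory synapses, lay in a domain of 16.7 kb at chr11:133945002-133961680. All 4 libraries had their summit within 193 to 257 bases of its start, upstream and in no exon, with folds of 6.56 and 8.18 for set A, and 22.4 and 8.75 for set B. Replicate 2 of H3K27me3 covered 76.6% of the domain. At HOXD1 all 4 summits lay 937 to 993 bases from the start, upstream, and in an intron of the lncRNA HAGLR. Set A had folds of 16.5 and 16.0 there, and set B had 10.5 and 4.72. Its window held no GGAA or TTCC. In both domains the 4 libraries met at 1 place inside.

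At BARHL2, a homeobox factor of retina and spinal cord, the sets marked different places in the 13.8 kb domain. Set A had its strongest summits 8432 and 8369 bases downstream of the start, with folds of 10.3 and 11.9. Set B had summits 948 and 897 bases upstream of the start, with folds of 6.16 and 7.34, and others 7732 and 7693 bases downstream with folds of 3.83 and 6.33. The downstream regions of the sets were near neighbours: in replicate 1 that of set A ended at chr1:90709281 and that of set B began at chr1:90709417. With summits grouped within 300 bases, the BARHL2 domain thus had FLI1 in 4 libraries without 1 site common to all of them.

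**Figure D5:**
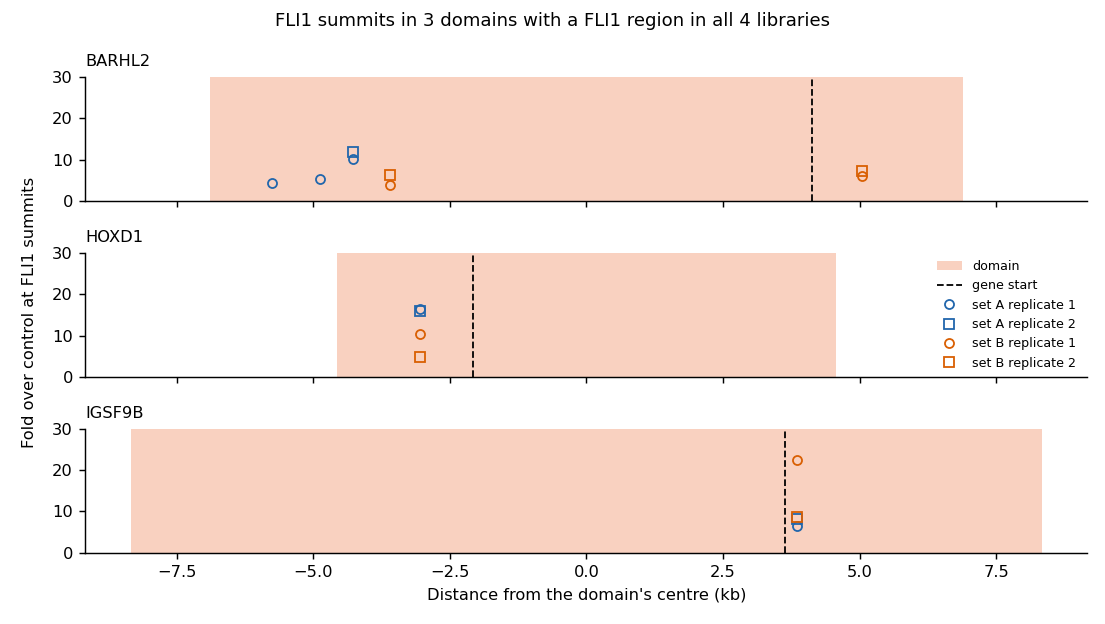
The domains of BARHL2, HOXD1 and IGSF9B, which had a FLI1 region in all 4 libraries, drawn by distance from the domain's centre in kb, with the gene start dashed and the authors' fold over control on the vertical axis. Summits within 300 bases of each other are drawn at their common window's centre. The libraries share a site at HOXD1 and IGSF9B, and not at BARHL2.

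The 9 domains with FLI1 in 3 libraries were looked at after that count was known. The GATA3 domain had a site 8275 bases downstream of the annotated start in set A replicates 1 and 2 and set B replicate 1, with folds of 7.40, 6.92 and 5.31. In the domain of FEV, itself an ETS factor, a site 5149 bases downstream of the start had folds of 7.85 in set A replicate 2 and 12.3 and 7.05 in set B. ADGRA1 had a site 5100 bases downstream of its start with folds of 8.34, 11.5 and 11.4. COL2A1, the collagen of cartilage, had a site 2799 bases downstream with folds of 6.11, 13.9 and 4.91 and no GGAA or TTCC in its window. The EFR3B region lay 345 bases upstream of the start and had its summits 325 bases outside the domain, with folds of 10.6, 11.7 and 17.5. PAX7, the activated-list gene, had FLI1 in its 11.4 kb domain in 2 libraries.

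GGAA repeats, to which EWSR1::FLI1 is known to bind, were counted where GGAA or TTCC stood at least 4 times in a row. The domains held 69 runs, or 4.79 per Mb, against 7.94 in the flanks, 7.06 in shorter rows and 5.62 in the genome. A FLI1 region lay within 250 bases of 3, 3, 3 and 1 of these 69 runs in the 4 libraries, or 4.35%, 4.35%, 4.35% and 1.45%. In the genome it was 17.6%, 18.8%, 16.0% and 13.7% of 16350 runs, and in the flanks 5.91%, 8.44%, 5.06% and 4.22% of 237. Repeats were thus present in the domains at a density near that of the genome, and fewer of them had a FLI1 region nearby. With 69 runs the share in domains rests on few events.

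H3K27ac regions did not touch the domains. Neither replicate of H3K27ac had a region inside any of the 1037 domains, and neither had one within 1 kb of any of the 394 domain starts. Over all protein-coding starts 11.3% had H3K27ac within 1 kb in both replicates. Shorter rows were alike: 0 and 1 of 10143 met a region in replicates 1 and 2. Of the 1207 starts in shorter rows 0 had one within 1 kb in either replicate. The absence was thus shared by H3K27me3 rows of both widths. A H3K27ac region found in both replicates lay within 20 kb of 14 domains, or 1.35%. Of shorter rows 0.848% had such a neighbour. Domains are wider than shorter rows, and neighbouring domains are not independent, so these shares are descriptions and were not tested. The median distance from a domain to H3K27ac in both replicates was 248.6 kb, and from a shorter row 315 kb.

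The 14 domains with such a neighbour had 12 distinct H3K27ac regions, 7 of the domains having one within 1 kb of a protein-coding start. The nearest pair lay 5.17 kb apart on chromosome 20, where a 29.8 kb domain in the bodies of BIRC7 and NKAIN4 faced a H3K27ac region 0.76 kb from the start of ARFGAP1, a regulator of Golgi transport. The BLACAT1 and LEMD1 domain lay 5.46 kb from its neighbour. GRIN1, which encodes a subunit of the NMDA receptor, lay in 8.69 kb with a H3K27ac region 6.53 kb away, upstream of its own start. The NES domain, over the gene of the neural intermediate filament nestin, and the BCAN domain, over a brain proteoglycan, lay on either side of 1 H3K27ac region, at 10.6 and 10.7 kb.

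TNNT3 and PRR33 likewise shared a neighbour, at 9.38 and 14.0 kb, in the muscle troponin region of chromosome 11. SBSN and GAPDHS, genes of skin and sperm, faced H3K27ac near TMEM147 at 9.83 kb. RSPO1 faced GNL2, a ribosome assembly gene, at 15.6 kb. FLI1 in all 4 libraries lay in the H3K27ac neighbour of 2 of the 14 domains, and no FLI1 library had a region in that of 4. Over all H3K27ac regions found in both replicates 23.4% had FLI1 in all 4.

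H3K9me3 regions were also scarce in the domains. They covered 0.0425% of domain bases in replicate 1 and 0.00282% in replicate 2, against 2.05% and 1.33% of the genome and 0.718% and 0.405% of the flanks. In both replicates together 0.00282% of domain bases lay in H3K9me3, against 0.0822% of the bases of shorter rows. A H3K9me3 region overlapped 13 domains in replicate 1 and 2 in replicate 2. The PLCH2 domain, the widest, was one of those met in replicate 1. In replicates 1 and 2 the density of H3K9me3 regions was 0.555 and 0 per Mb inside the domains. It rose from 4.46 and 1.98 per Mb in the first 1 kb outside to 10.3 and 6.54 at 100 to 200 kb.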

How the data were processed

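Peak lists of 10 CUT&RUN libraries of TC-32 were used. Per the file names, the authors removed duplicates and called peaks separately in every library, with the matching IgG library (same letter, same replicate) as control, so no replicates were pooled. Per the submitters' processing notes, cutadapt 4.4, Bowtie2, Picard 2.17.11 and MACS2 2.1.1 were used with GRCh38 (hg38). The caller's settings are not given in the sources used here. The lists hold the deposited fold of each region over control, a ratio, and the deposited −log10 p-value and −log10 q-value. Fold depends on the depth of its library, so it was used to describe regions or rank them within a list. No region ran past an hg38 chromosome end.

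In every list, rows with the same chromosome, start and end were reduced to the most significant. Domains are defined in the report, and shorter rows are those under 8 kb that also overlapped replicate 2. FLI1 positions were summits, and H3K27ac and H3K9me3 positions were region centres. Gene starts were from GENCODE 44, and promoters and miRNAs from RefSeq (GRCh38.p14). Sets A and B were taken from the titles. FLI1 density ratios and shares of starts were compared with exact sign-flip permutations over 4 libraries, and set A with set B by exact permutation, with Benjamini-Hochberg adjustment over the 4 tests. No test in this design can pass 0.05. The domains, gene lists and tests were chosen with earlier results of these data known. Genes were named by rule: the 12 widest domains, the 5 with the most starts, HOX clusters, domains with FLI1 in all 4 libraries, the 8 nearest to H3K27ac, up to 6 list genes by width, the 3 rows on either side of 8 kb, and ETS1, FLI1, EWSR1, NR0B1, CCND1 and NKX2-2. miRNAs, chain genes and domains with FLI1 in 3 libraries were named after their values were seen.

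The interval code was tested on simulated regions. It returned the right value in all of 3640 comparisons, and with a true log2 density ratio of -2 over the 1037 domains the mean estimate was -1.98 over 20 runs. Alternatives covered width, overlap, joining of rows, flank size, FLI1 strength, the start window and leaving out each library. The IgG libraries and reads were not analysed here, and a few named genes and sequences are not reported here. Python 3.11.15 with numpy 2.4.6, pandas 2.3.3, scipy 1.17.1 and matplotlib 3.10.9 was used.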

Additional observations from a re-analysis of the deposited data

How the results depend on the processing

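The number of domains followed the width and the list. There were 2306 domains with 734 protein-coding starts at 5 kb, 448 with 205 at 12 kb, and 1963 with 711 after rows under 3 kb apart were joined. Without H3K27me3 replicate 1, the domains drawn from replicate 2 numbered 564 with 239 starts, and without replicate 2 there were 1037 with 394. FLI1 density kept its direction in every alternative run: 12 values from -2.19 to -1.61 against the flanks, 10 from -0.90 to -0.57 against shorter rows, and 11 from -47.5 to -31.1 percentage points at starts. The difference between sets A and B had no stable direction. It was -0.68 to 0.0689 when single FLI1 libraries were left out, the reversal to 0.0689 coming without set B replicate 1, and the cause was not tested. Replicate numbers did not pair the libraries (r = 0.0137 across 12883 regions), and with the replicate block the difference was -0.30 with an exact permutation p of 0.5, the smallest it allows.

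The share of domains near H3K27ac was 3.18% with regions of either replicate, 0.482% within 10 kb and 5.98% within 50 kb. It was 2.41% without H3K27ac replicate 1 and 2.22% without replicate 2. H3K9me3 cover ranged from 0.00282% to 0.0425% when single replicates were left out. Depth is unknown, so an empty domain may hold signal under the callers' limit, and domain edges are those of 1 library.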
